A study of Mus musculus with 18 samples.

Results

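The Frizzled receptor family was followed across the neocortex of MF1 mouse embryos at E13.5, in mid-gestation, along the axis from its rostral to its caudal end. Members were all probes of the deposited values table that the platform annotation assigns to the gene symbols Fzd1 to Fzd10. Of the 10 symbols, 9 had a probe, 1 probe each, among 21766 probes that were not control spots, and all 9 probes could be tested. Fzd10 had no probe of that name and is not analysed here.

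Total RNA of 3 rostral, 3 middle and 3 caudal pools of neocortex was compared on 18 arrays with 2 dyes, each array holding pools of 2 different regions. No genotype, transgene or treatment is named in the labels, and all groups share strain and age. The labels count 4 embryos for all 9 pools and leave out which embryo went into which pool. P-values therefore reflect only how much these pools scatter, and part of that scatter may be technical. Arrays with 2 dyes give ratios between pools and no absolute level, so the genes cannot be ranked by abundance, and the labelled tissue could not be checked by the level of its markers.

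Frizzled proteins are receptors that cross the membrane several times and bind secreted, lipid-modified WNT ligands through a cysteine-rich domain outside the cell. With the co-receptors Lrp5 and Lrp6 they stabilise beta-catenin, which acts with TCF and LEF factors in the nucleus. With other partners they orient cells within a sheet and guide axons. In the embryonic mouse forebrain the cortical hem, at the caudomedial edge of the neocortex, secretes WNT ligands, and secreted Frizzled-related proteins bind WNT ligands outside the cell.

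The RefSeq promoter table (build GRCm38.p6) held 6 of the 10 genes: Fzd1, Fzd4, Fzd5, Fzd7, Fzd9 and Fzd10. The promoters of Fzd7, the member with the lowest p-value in these data, and of its close relative Fzd1 are shown so that the same window can be read in both. Each line runs 5′ to 3′ on the strand of the gene, from 250 bases before to 50 bases after the start of transcription. Capitals mark the core motif of TCF and LEF factors, CTTTGT or its reverse complement ACAAAG. The Fzd7 window is chr1:59481897-59482196 on the plus strand and the Fzd1 window is chr5:4758167-4758466 on the minus strand.
Fzd7: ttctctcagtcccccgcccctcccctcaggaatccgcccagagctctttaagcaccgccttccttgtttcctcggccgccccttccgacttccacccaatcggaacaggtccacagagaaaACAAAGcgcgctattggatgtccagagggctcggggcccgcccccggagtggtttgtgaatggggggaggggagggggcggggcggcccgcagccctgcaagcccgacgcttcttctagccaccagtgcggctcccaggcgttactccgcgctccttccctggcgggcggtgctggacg
Fzd1: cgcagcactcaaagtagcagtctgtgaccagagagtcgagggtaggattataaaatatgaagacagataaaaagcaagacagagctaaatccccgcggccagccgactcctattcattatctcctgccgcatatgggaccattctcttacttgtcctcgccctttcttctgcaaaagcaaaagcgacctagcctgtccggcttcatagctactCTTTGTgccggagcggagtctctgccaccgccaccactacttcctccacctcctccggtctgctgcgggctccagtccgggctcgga
The core motif begins 129 bases before the start site in Fzd7 and 37 bases before it in Fzd1. It was found on either strand in 2 of the 6 Frizzled promoters, against 18.7% of all 32851 promoters in the table. The CCAAT box, CCAAT or ATTGG, was found in 3 of the 6 and in 37.4% of all promoters. The GC box, GGGCGG or CCGCCC, was found in 5 of the 6 and in 35.7% of all. These 5 windows were rich in G and C, at 66.7% to 78% of bases, against a median of 52.7% over all promoters. The Fzd1 window, without a GC box, had 54%. The core motif overlapped neither of the other motifs in Fzd7 or Fzd1. A match is only a run of letters and no binding was measured here.

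Pool values are log2 values estimated for each gene from all arrays of its pools, centred so that the 9 pools average 0. Differences between regions are therefore on the log2 scale, with the region named first minus the other. The direction of the deposited ratio is likely, not stated: it was read as Cy5 over Cy3, under which Nr2f1, a transcription factor known from mouse to be high caudally, was -1.02 ± 0.07 (SE) in rostral against caudal pools by 1 probe. Its other probe gave -1.02 ± 0.17. Etv1, an FGF-responsive factor known to be high rostrally, was 0.80 ± 0.07. If the ratio ran the other way, every sign below would turn.

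Across the family, 0 of 9 members passed an adjusted p of 0.05 in limma (Benjamini-Hochberg over 18525 features) in any of the 3 comparisons or in the F test for any difference among regions. The share of all features that passed was 0.0648% in rostral against caudal, 0% in rostral against middle, 0% in middle against caudal and 0.0108% in the F test. At an unadjusted p under 0.05 there were 2 of 9 members in rostral against caudal (Fzd7 and Fzd2), beside 7.9% of all features. Rostral against middle had 1 of 9, Fzd7, beside 5.25% of all features. Middle against caudal had 1 of 9, again Fzd7, beside 4.86%, and the F test had 1 of 9, Fzd7, beside 6.71%. With pools of 3 a region, the rostral and caudal pools of 3 of 9 members did not overlap (Fzd2, Fzd6 and Fzd7), beside 12.1% of all features. The rostral and middle pools of 1 of 9 did not overlap, Fzd7, beside 12.8% of all features. The middle and caudal pools of 3 of 9 did not overlap (Fzd2, Fzd7 and Fzd8), beside 10.6% of all features.

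The median member differed by -0.05 in rostral against caudal, by -0.02 in rostral against middle and by 0.01 in middle against caudal, where the median of all features was 0.00 each time. Of the 9 members, 6 of 9 lay below 0 in rostral against caudal, beside 49.6% of all features, and without centring of the arrays 8 of 9 did, where the median of all features itself was -0.07. In rostral against middle 7 of 9 lay below 0 and without centring 2 of 9, where the median of all features was 0.10. In middle against caudal 4 of 9 lay below 0 and without centring 9 of 9, where the median of all features was -0.17. Relative to that median the uncentred values gave 6, 7 and 4 members below it.

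**Figure D1:**
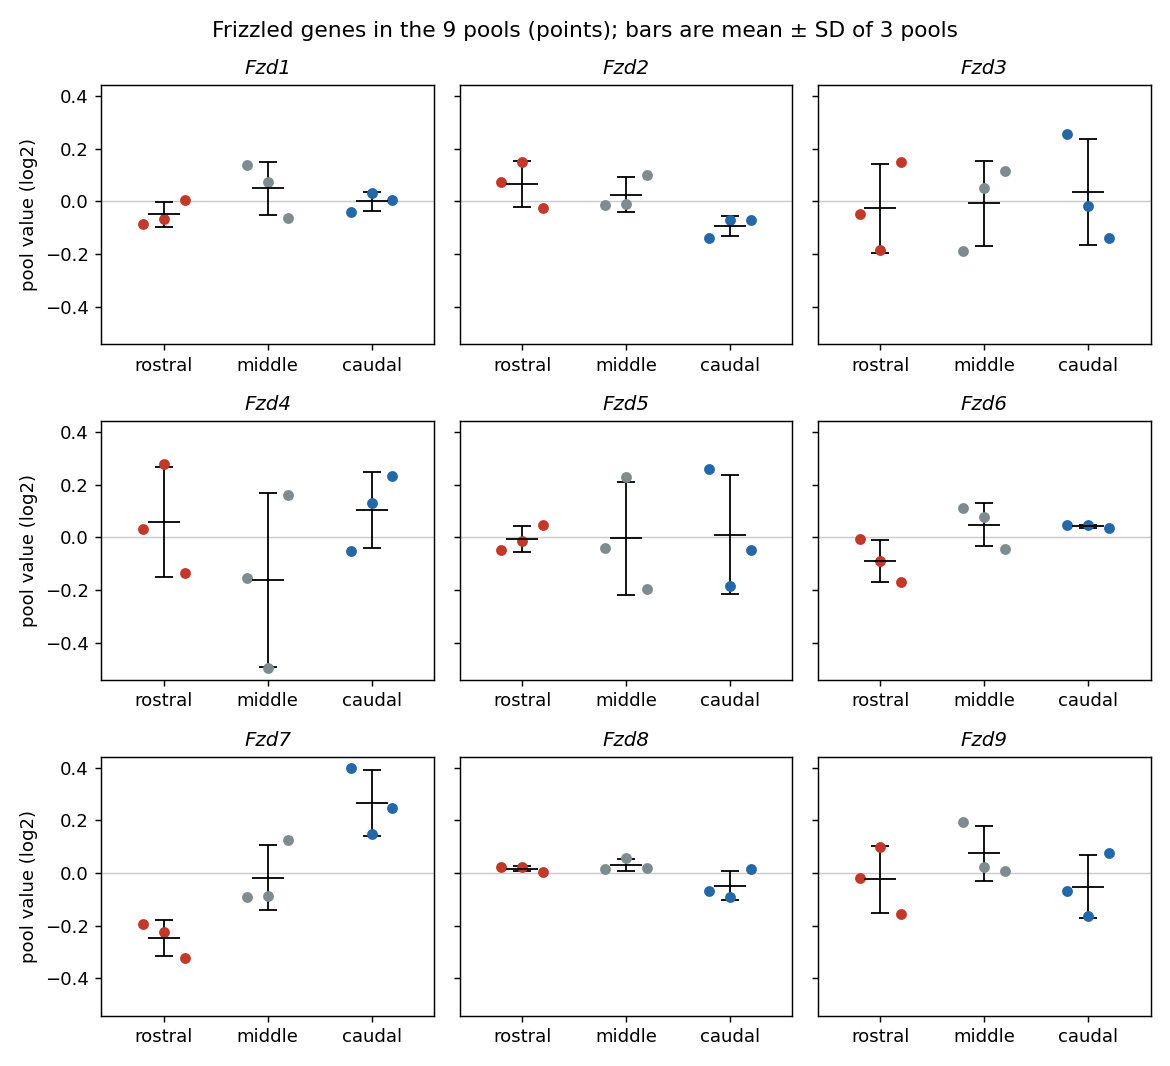
Pool values (log2, centred on 0 over the 9 pools) of the 9 Frizzled genes with a probe. Points are pools, 3 per region, and bars are mean ± SD. Fzd7 runs from -0.32 to -0.19 in rostral pools, from -0.09 to 0.12 in middle pools and from 0.15 to 0.40 in caudal pools, while the pools of the 3 regions overlap in most other panels.

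Fzd7, Fzd1 and Fzd2 form a subfamily of closely related receptors that work mainly through beta-catenin. Fzd7 showed the widest regional difference of the family in rostral against caudal pools. Its pool values were -0.19, -0.22 and -0.32 in the rostral pools, -0.09, -0.09 and 0.12 in the middle pools and 0.40, 0.15 and 0.25 in the caudal pools. Every rostral value was under every middle value, and every middle value under every caudal value, an order held by 75 of 18525 features, or 0.405%. That share covers this direction only, and features in the reverse order were not counted. The means of Fzd7 were -0.25 ± 0.07 (SD, n = 3) in rostral pools, -0.02 ± 0.12 in middle pools and 0.27 ± 0.12 in caudal pools.

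Between rostral and caudal pools Fzd7 differed by -0.51 ± 0.09 (SE), with a 95% interval from -0.72 to -0.30, or 1.43-fold lower in rostral. The unadjusted p of limma was 0.000647, at rank 73 of all features, and the adjusted p was 0.156, so the difference did not pass. In rostral against middle it was -0.23 ± 0.09, with an interval from -0.44 to -0.02 and adjusted p of 0.929 in limma. In middle against caudal it was -0.28 ± 0.09, with an interval from -0.49 to -0.07 and adjusted p of 0.772 in limma. An unadjusted p of 0.05 was missed in 21 of 41 alternative settings for rostral against middle and in 7 of 41 for middle against caudal. The step between rostral and middle and the step between middle and caudal differed by 0.06 ± 0.16 (SE), with an interval from -0.31 to 0.42. Of all features, 1338 had a larger absolute difference in rostral against caudal than Fzd7.

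The ratios of single arrays stand behind these pool values. Fzd7 had no value on the array that held R1 in Cy5 and C3 in Cy3, so the pool values of R1 and C3 rest on 3 of their 4 arrays. With the dye coefficient removed, the 5 arrays that joined a rostral and a caudal pool read -0.79, -0.53, -0.49, -0.69 and -0.47. All 5 were below 0, also with the dye kept, where they lay between -0.75 and -0.47. Of the 6 arrays joining a rostral and a middle pool, 5 were below 0, and the 1 above it, at 0.23, held R2 and M1. Of the 6 arrays joining a middle and a caudal pool, 4 were below 0 and the others, at 0.04 and 0.10, both held C2, the caudal pool with the lowest value of Fzd7. With the dye kept 4 of 6 arrays were below 0 in each of these pairs of regions.

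**Figure D2:**
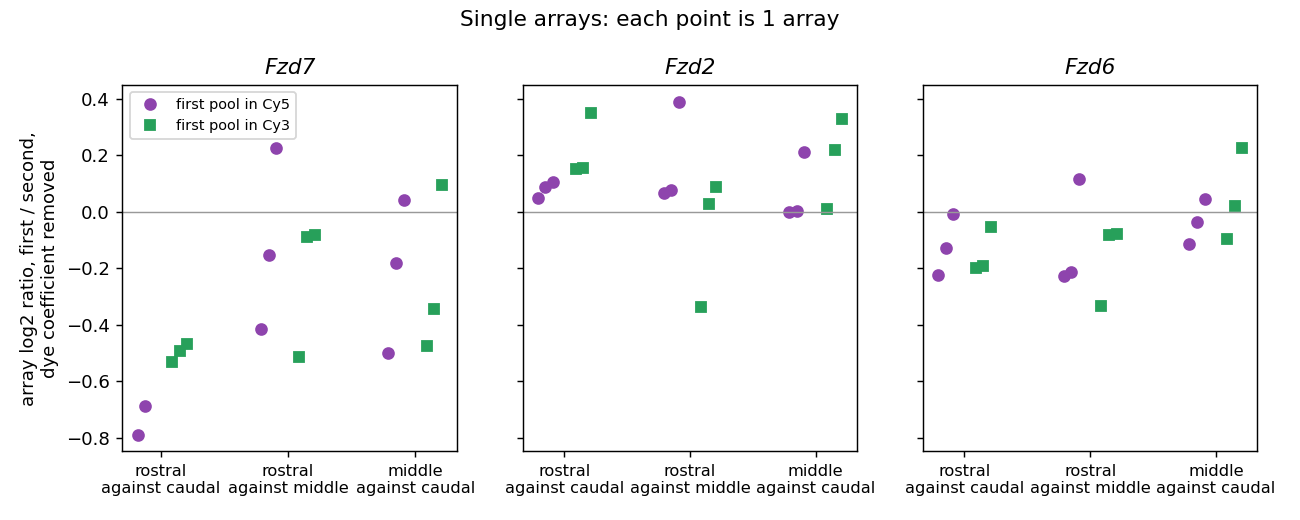
Log2 ratios of single arrays for Fzd7, Fzd2 and Fzd6, by the pair of regions on the array, first region over second, with the dye coefficient removed. Each point is 1 array, circles where the first pool was in Cy5 and squares where it was in Cy3. For Fzd7 all 5 arrays of a rostral and a caudal pool lie between -0.79 and -0.47.

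Markers of the meninges, the membranes over the cortex, were read beside Fzd7. Of 13 meningeal and mesenchymal markers 11 were measured. In rostral against caudal 10 of them lay below 0, beside 49.6% of all features, with a median of -0.17. An unadjusted p under 0.05 in limma was reached by 5 of the 11, beside 7.9% of all features. After adjustment 0 of the 11 passed, beside 0.0648%. Fn1, 1 of these 5, was counted by a probe at -0.17 ± 0.05 (SE). Its other probe gave -0.08 ± 0.08, with an unadjusted p of 0.342 in limma. The median of the list lay between -0.13 and 0.00 in rostral pools, between -0.06 and 0.00 in middle pools and between 0.01 and 0.13 in caudal pools. Its caudal pools lay above all others, as for Fzd7, but narrowly, with 0.0102 in C2 against 0.0044 in R1. For Fzd7 the closest pools were C2 at 0.1494 and M3 at 0.1238. The rostral and middle pools of the list overlapped, where those of Fzd7 did not. In rostral against middle 8 of the 11 markers lay below 0, as Fzd7 did, and 3 above it, with a median of -0.04. Ptgds, a prostaglandin synthase of the meninges, was among those 3, at 0.16 ± 0.13 (SE), and was -0.66 ± 0.13 in rostral against caudal. Dcn, the matrix protein decorin, was -0.39 ± 0.09 in rostral against caudal. Other marker lists were also run. In rostral against caudal the red blood cell list had a median of -0.32. Of 12 radial glia markers 5 lay below 0 and 7 above it in that comparison, with a median of 0.01. Among them Vim passed, at -0.51 ± 0.05 (SE) with an adjusted p of 0.0389 in limma. The part of any of these cell types in the Fzd7 values was not tested. In bulk tissue, fewer cells of a type and less RNA per cell cannot be told apart.

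The genes most like Fzd7 over the 9 pools, among 10376 candidates with 1 symbol and values on all arrays, were Brctd1 (Pearson r = 0.977), Fgfr2 (r = 0.976) and Krtap15 (r = 0.968). Fgfr2 is a receptor of fibroblast growth factors. It differed by -0.18 ± 0.05 (SE) in rostral against caudal, with 0.379 as its adjusted p in limma. Krtap15, a keratin-associated protein, differed by -0.53 ± 0.13. These are the highest of many correlations, over 9 pool values that share arrays and sum to 0, and are a description.

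Fzd1 gave no such order. Its pool values were -0.09, -0.07 and 0.00 in rostral pools, 0.14, 0.07 and -0.06 in middle pools and -0.04, 0.03 and 0.01 in caudal pools, and the 3 regions overlapped. It differed by -0.05 ± 0.06 (SE) in rostral against caudal, with an interval from -0.20 to 0.10, and by -0.10 ± 0.06 in rostral against middle. All 6 arrays that joined a rostral and a middle pool were below 0 with the dye coefficient removed, and 3 of 6 were with the dye kept.

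Fzd2 had the opposite sign to Fzd7. Its pool values were 0.08, 0.15 and -0.02 in rostral pools, -0.01, -0.01 and 0.10 in middle pools and -0.14, -0.07 and -0.07 in caudal pools. The caudal pools lay below all others, while rostral and middle pools overlapped. The difference of rostral against caudal was 0.16 ± 0.06 (SE), with an interval from 0.01 to 0.31, and limma gave an unadjusted p of 0.0383 and an adjusted p of 0.580. In middle against caudal it differed by 0.12 ± 0.06, with an interval from -0.03 to 0.27. All 6 arrays that joined a rostral and a caudal pool were above 0, between 0.05 and 0.35 with the dye coefficient removed and between 0.01 and 0.25 with the dye kept. The highest of them, 0.35, held R3 and C1, and without that array the difference was 0.11 ± 0.09 with an unadjusted p of 0.258 in limma.

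The genes most like Fzd2 were 3110009E18Rik (r = 0.977), Selenok (r = 0.969) and an immunoglobulin kappa variable gene (r = 0.958). Selenok encodes a selenoprotein of the endoplasmic reticulum. The immunoglobulin probe most like Fzd2 gave 0.18 ± 0.07 (SE) in rostral against caudal, and the other probes of that gene lay between -0.26 and 0.26, so they disagreed in direction.

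Fzd5 and Fzd8 are a closely related pair that also acts through beta-catenin and is known from mouse in the eye field and the forebrain. Fzd8 had the narrowest range of pool values in the family, 0.145 in all. Its pool values were 0.02, 0.02 and 0.01 in rostral pools, 0.02, 0.06 and 0.02 in middle pools and -0.07, -0.09 and 0.01 in caudal pools. Middle and caudal pools did not overlap, with the difference at 0.08 ± 0.05 (SE), an interval from -0.03 to 0.19 and an adjusted p of 0.995 in limma. Rostral and caudal pools differed by 0.07 ± 0.05, with an interval from -0.05 to 0.18, which does not reach the -0.51 of Fzd7.

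Fzd5 varied within regions more than between them. Its pool values were -0.05, -0.02 and 0.05 in rostral pools, -0.04, 0.23 and -0.20 in middle pools and 0.26, -0.18 and -0.05 in caudal pools. The regional means lay between -0.01 and 0.01. The differences were -0.01 ± 0.14 (SE) in rostral against caudal, 0.00 ± 0.14 in rostral against middle and -0.01 ± 0.14 in middle against caudal, each with an interval that reached past 0.3 on either side.

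Fzd3 and Fzd6 are the members best known for planar cell polarity, and Fzd3 is needed in mouse for the growth of major forebrain axon tracts. Fzd3 was -0.05, -0.18 and 0.15 in rostral pools, -0.19, 0.05 and 0.12 in middle pools and 0.26, -0.02 and -0.14 in caudal pools. These ranges overlapped almost in full. It differed by -0.06 ± 0.14 (SE) in rostral against caudal, with an interval from -0.38 to 0.26, by -0.02 ± 0.14 in rostral against middle and by -0.04 ± 0.14 in middle against caudal.

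Fzd6 was -0.01, -0.09 and -0.17 in rostral pools, 0.11, 0.08 and -0.04 in middle pools and 0.04, 0.04 and 0.04 in caudal pools. Every caudal pool lay above every rostral pool, and the middle pools overlapped with both. In rostral against caudal it differed by -0.13 ± 0.06 (SE), with an interval from -0.28 to 0.02 and an unadjusted p of 0.0747 in limma. In rostral against middle it differed by -0.14 ± 0.06, with an interval from -0.29 to 0.01 and an unadjusted p of 0.0640 in limma. Middle and caudal pools differed by 0.01 ± 0.06. All 6 arrays joining a rostral and a caudal pool were below 0 with the dye coefficient removed, and 5 of 6 with the dye kept.

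The gene most like Fzd6 over the pools was Hbb-y, an embryonic beta globin (r = 0.938), followed by Rps6kb2 (r = 0.898), a ribosomal S6 kinase, and Dusp14 (r = 0.896), a phosphatase. Hbb-y differed by -0.33 ± 0.11 (SE) in rostral against caudal, and Alas2, a haem synthesis enzyme of red cells, by -0.32 ± 0.07. Of 7 red blood cell markers 5 were measured. In rostral against caudal 4 of 5 lay below 0, beside 49.6% of all features, and in rostral against middle 5 of 5. Of these markers 0 of 5 passed after adjustment in limma. Hba-a1, an alpha globin, was 0.07 ± 0.08 in rostral against caudal. The median of the list lay between -0.42 and -0.01 in rostral pools, between 0.03 and 0.15 in middle pools and between -0.09 and 0.18 in caudal pools. Its rostral pools lay below all its middle pools and overlapped with its caudal pools. The part of red blood cells in the Fzd6 values was not tested.

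Fzd4 and Fzd9 belong with Fzd10 to the remaining subfamily. Fzd4 is the receptor of norrin in vessels of the mouse retina and brain. It was 0.03, 0.28 and -0.14 in rostral pools, -0.15, -0.50 and 0.16 in middle pools and -0.05, 0.13 and 0.23 in caudal pools, so the regions overlapped. It had the widest spread of the family, with 0.50 as the residual SD between its arrays, where the median feature had 0.256. Its differences were -0.05 ± 0.18 (SE) in rostral against caudal, 0.22 ± 0.18 in rostral against middle and -0.27 ± 0.18 in middle against caudal, with an interval from -0.70 to 0.16 in the last of these. Without the pool M2 they were 0.06 in rostral against middle and -0.10 in middle against caudal. Of the endothelial markers, all 10 were measured, and their median difference was -0.08 in rostral against caudal, -0.05 in rostral against middle and 0.01 in middle against caudal.

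Fzd9 is known from mouse for its expression in the hippocampus. It was -0.02, 0.10 and -0.15 in rostral pools, 0.20, 0.02 and 0.01 in middle pools and -0.07, -0.16 and 0.08 in caudal pools. The regions overlapped. It differed by 0.03 ± 0.10 (SE) in rostral against caudal, by -0.10 ± 0.10 in rostral against middle and by 0.13 ± 0.10 in middle against caudal, with an interval from -0.10 to 0.35 in the last of these.

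**Figure D3:**
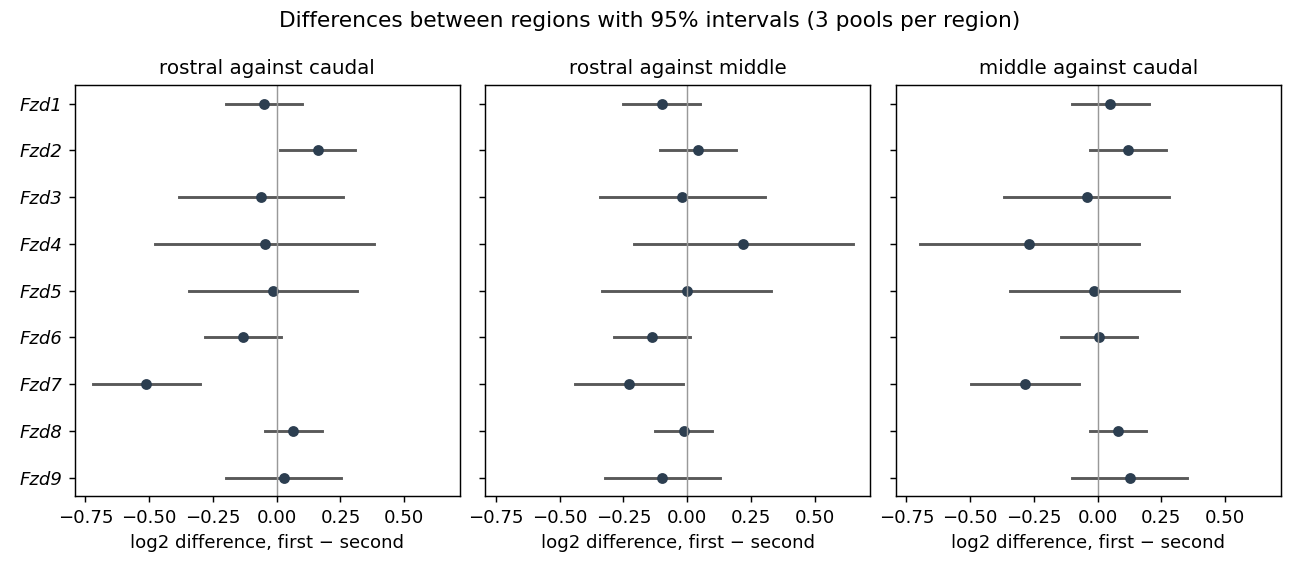
Differences between regions of the 9 Frizzled genes (log2, first region minus second), with points for estimates and lines for 95% intervals from limma on 9 pools. The intervals of Fzd7 lie below 0 in all 3 panels under these settings, that of Fzd2 lies above 0 in rostral against caudal, and all others cross 0. None of these differences passed after adjustment over all features.

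The other genes of the pathway were read from lists of ligands, co-receptors, secretion genes, antagonists, R-spondins with turnover genes, planar polarity partners, transducers and response genes. In each of these lists 0 genes passed an adjusted p of 0.05 in limma in any of the 3 comparisons. In rostral against caudal an unadjusted p under 0.05 was reached by 0 of 17 ligands, 0 of 11 co-receptors and other receptors, 1 of 2 secretion genes, 1 of 9 antagonists, 0 of 6 R-spondin and turnover genes, 0 of 9 polarity partners, 3 of 19 transducers and 0 of 8 response genes, beside 7.9% of all features. Here and in the marker lists, a gene with several probes was counted by the probe with values on most arrays. Ties went to the lower p of the F test, which can raise these counts against the share of single features. Of these transducers, Gsk3b was counted by 1 of 3 probes that disagreed. Its other probes gave an unadjusted p of 0.695 and, with the opposite sign, 0.0361 in limma. The medians of these lists in that comparison lay between -0.23 for the secretion genes and 0.07 for the response genes.

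Of the ligands, Wnt8b, a WNT of the cortical hem, averaged 0.17 ± 0.02 (SD, n = 3) in rostral pools, -0.26 ± 0.07 in middle pools and 0.09 ± 0.11 in caudal pools. Wnt8b differed by 0.43 ± 0.07 (SE) in rostral against middle, with unadjusted p of 0.000344 and adjusted p of 0.445 in limma. In middle against caudal Wnt8b differed by -0.35 ± 0.07, with unadjusted p of 0.00126 and adjusted p of 0.413 in limma. The unadjusted p of its F test was 0.000782, against 0.00207 for Fzd7. Wnt4 averaged 0.01 ± 0.08 (SD, n = 3) in rostral pools, 0.07 ± 0.04 in middle pools and -0.08 ± 0.04 in caudal pools. Wnt7b, a WNT made by cortical cells, averaged -0.16 ± 0.10 in rostral pools, 0.08 ± 0.15 in middle pools and 0.08 ± 0.19 in caudal pools. Wls, the carrier that brings WNT ligands to the cell surface, ran the same way as Fzd7, with -0.24 ± 0.13 in rostral pools, 0.07 ± 0.03 in middle pools and 0.17 ± 0.12 in caudal pools. It differed by -0.41 ± 0.09 (SE) in rostral against caudal, with an adjusted p of 0.193 in limma. Porcn, the enzyme that attaches the lipid to WNT ligands, differed by -0.05 ± 0.06.

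Among the receptors that work beside the Frizzled proteins, Lrp5 differed by 0.11 ± 0.07 (SE) in rostral against caudal and Ror2, a receptor tyrosine kinase for WNT ligands, by -0.05 ± 0.07. Smo, a relative of the Frizzled proteins that serves the Hedgehog pathway, differed by 0.09 ± 0.06. Of the secreted antagonists, Sfrp1, a Frizzled-related protein, had 2 probes, at 0.73 ± 0.09 and 0.94 ± 0.13 in rostral against caudal, with adjusted p of 0.0571 and 0.0619 in limma. Both probes were therefore of opposite sign to Fzd7 and just short of the threshold. Wif1, which binds WNT ligands, and Notum, which removes their lipid, differed by -0.17 ± 0.79 and 0.60 ± 0.43.

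Rspo3, a secreted protein that keeps Frizzled receptors at the cell surface, differed by -0.14 ± 0.08 (SE) in rostral against caudal, and its relative Rspo4 by 0.72 ± 0.53. Tmem88, a membrane protein that binds Dishevelled, differed by -0.16 ± 0.11. Vangl2, Celsr1 and Celsr3, which act with Fzd3 and Fzd6 in cell polarity, differed by -0.52 ± 0.68, -0.10 ± 0.08 and -0.57 ± 0.37. None of these reached an unadjusted p of 0.05 in that comparison.

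Of the transducers, Amer1, a membrane scaffold of the complex that degrades beta-catenin, differed by 0.50 ± 0.06 (SE) in rostral against caudal, with an adjusted p of 0.0571 in limma. Gsk3b, a kinase of that complex, had 3 probes, which disagreed at -0.27 ± 0.06, -0.03 ± 0.06 and 0.14 ± 0.05. Csnk1e, a kinase that acts on Dishevelled, differed by -0.21 ± 0.07. Of the response genes, Myc differed by 0.12 ± 0.05, Ccnd1, which encodes a D-type cyclin, by 0.28 ± 0.15 and Tnfrsf19 by -0.23 ± 0.12, and each missed an unadjusted p of 0.05 in limma.

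**Figure D4:**
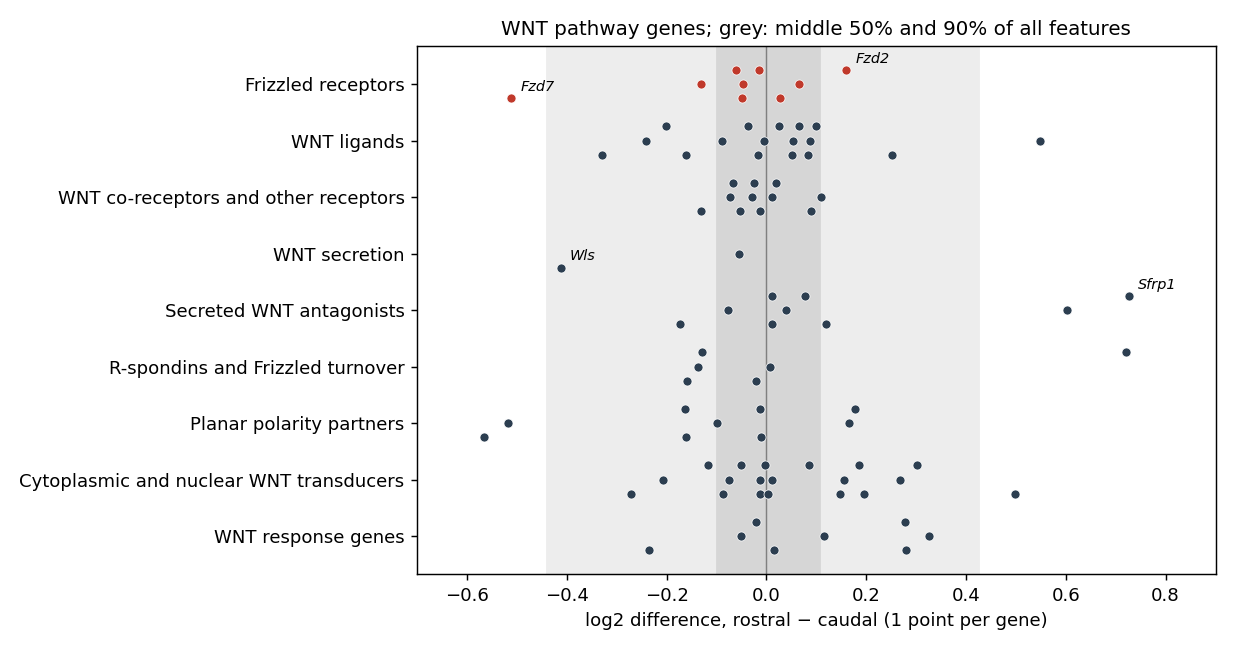
Log2 difference of rostral minus caudal pools for WNT pathway genes, 1 point per gene, by list, with Frizzled genes in red. Points within a list are spread in height only to keep them apart. Grey bands hold the middle 50% and 90% of all features tested. Fzd7 (-0.51) lies below the wider band, from -0.44 to 0.43, and the other 8 Frizzled genes lie inside it.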

How the data were processed

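Total RNA of 9 pools was hybridised on 18 arrays with 2 dyes. The authors deposited 1 log2 ratio per probe and array. How arrays were scanned and normalized is not given in the sources used here. Base 2 was inferred: the highest value on every array corresponds to a capped ratio of 100000. Of 21998 probes, 232 Gapdh control spots were left out. The platform annotation gave 1 symbol to 16632 of the rest and more than 1 to 139, and 4995 stay without a name here. The 1477 capped ratios were set to missing, and 0 of these were on Frizzled probes. Arrays held 18085 to 20693 values. Their number limits the precision.

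Array medians lay between -0.09 and 0.61, so each array was centred on its median. A feature was kept if 12 or more arrays, 2 or more for each pool, had a value (18525). Pool values were fitted by least squares with a dye term, and regions were compared over the 9 pools in limma 3.58.1 under R 4.3.3 (lmFit, eBayes; 6 residual degrees of freedom). P-values are two-sided, with Benjamini-Hochberg adjustment across the whole table. The script was tested on simulated data. There 29% of 100 features given a rostral against caudal difference of 0.5 passed, as did 54% of 100 given 1 and 0.022% of those given 0. The numbers were not taken to pair pools. Same-numbered pools deviated with correlations between -0.43 and -0.06. These cannot decide whether the numbers pair pools, because only pools of different numbers shared arrays, which can lower the correlations by itself.

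Members and gene lists were chosen with earlier results of these data known. The text names every Frizzled probe; from each other list of WNT pathway genes the genes that passed, or else the 3 with the lowest p of the F test (both, where a list has 2); the 3 genes most like each of the 3 members with the lowest p of that test; and Nr2f1 and Etv1 as checks of direction. Genes of marker lists (Ptgds, Dcn, Fn1, Vim, Hba-a1, Alas2) were not covered by this rule and were named after their values were seen. The alternatives tried were other scalings, filters, dye and variance settings, other units of sampling, blocks, a control covariate, and each pool or array left out.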

Additional observations from a re-analysis of the deposited data

Results flagged for a closer look

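For 27 sets of array values (9 genes by 3 pairs of regions, 5 or 6 arrays each, dye coefficient removed) the array farthest from the others was compared with Dixon's limit, which chance passes in about 1 in 20 sets. Fzd2 on the array of R3 and C1 stood apart at 0.3503, where the other 5 arrays joining rostral and caudal pools lay between 0.0497 and 0.1563. Fzd4 on the array of R3 and C2 stood apart at -1.1322, where the other 5 lay between -0.0718 and 0.3842. Without that array Fzd4 differed by 0.14 ± 0.17 (SE) in rostral against caudal, against -0.05 ± 0.18 with it.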

How the results depend on the processing

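The count of Frizzled genes that passed stayed at 0 in every comparison run under 41 of 42 alternatives (limma). The exception took the array as the sample, which treats arrays that share pools as independent: there 1 passed in rostral against caudal and 1 in the F test, Fzd7 in both, with adjusted p of 0.00108 and 0.00304. That setting passed 1325 features in rostral against caudal, 703 in rostral against middle, 501 in middle against caudal and 1491 in the F test, against 12, 0, 0 and 2. With pool number as a replicate block the count in rostral against caudal was 0, with an adjusted p of 0.520 for Fzd7. In rostral against caudal the difference of Fzd7 kept its sign in 41 of 41 alternatives that gave it, between -0.62 and -0.44, with unadjusted p under 0.05 in 41 and adjusted p from 0.00108 to 0.605. It had no value among features measured on all arrays. Of its other differences, rostral against middle lay between -0.31 and -0.12, with unadjusted p under 0.05 in 20 of 41, and middle against caudal between -0.45 and -0.21, with 34 of 41. Fzd2 in rostral against caudal kept its sign in 42 of 42, between 0.09 and 0.21, with unadjusted p under 0.05 in 23, and Fzd6 kept its sign in 42, between -0.21 and -0.09, with 7. Signs turned there in 3 of 42 alternatives for Fzd3, 6 for Fzd4, 10 for Fzd5, 1 for Fzd8 and 10 for Fzd9. In rostral against middle they turned in 1 for Fzd1, 2 for Fzd2, 10 for Fzd3, 13 for Fzd5, 4 for Fzd8 and 2 for Fzd9. In middle against caudal they turned in 6 for Fzd3, 12 for Fzd5, 8 for Fzd6 and 1 each for Fzd1, Fzd2, Fzd8 and Fzd9. Over all features, rostral against caudal passed 46 among features with values on all arrays and 7 with no filter on missing values. It passed 0 without centring, with quantile normalization, with a variance trend, on direct arrays alone, with each block and with the Gapdh covariate. With a pool left out it passed 0 to 4, and with an array left out 2 to 22. The F test passed 20 on all-array features, 0 under the settings just listed (direct arrays alone give no F test), with arrays scaled to a common spread, with capped ratios kept and with no filter on missing values, and 0 to 5 with a pool or an array left out. The causes were not tested.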
